A study of Mus musculus with 4 samples.

Results

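The genes described here are 30 mouse genes of the p53 pathway, Trp53 itself and 29 genes known as its transcriptional targets, taken by symbol from the 31053 features of each count table. The list was given by gene name and uses no threshold on the values, but it was drawn up with earlier results of these data known. All 30 symbols were found once in the feature tables. Each gene was followed across the 4 libraries of the series and across 5 cell classes, macrophage, T, natural killer (NK), mast and stromal, which were gated by the unique molecular identifiers (UMIs, 1 per captured transcript) of marker genes that are not members.

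p53, encoded by Trp53, is a transcription factor that is held low in resting cells by Mdm2, a ubiquitin ligase that marks it for degradation and whose own gene is a p53 target. DNA damage, such as the crosslinks made by cisplatin, activates the kinases that release p53 from Mdm2, mainly at the level of the protein. Its targets then stop the cell cycle (Cdkn1a, which encodes p21), promote cell death (Bax, Bbc3, Pmaip1, Fas), support repair and nucleotide supply (Polk, Rrm2b) and feed back on p53 (Mdm2, Ccng1).

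The study grew tumours from TC-1, a line of mouse lung epithelial cells transformed with oncogenes that include those of human papillomavirus, whose E6 protein is known to degrade p53, in wild-type C57/bl6 mice given 300000 cells under the skin. When a tumour measured 40 mm2, the mice received either PBS or cisplatin, a platinum drug, at 6 mg/kg into the peritoneum, once. Tumours were digested and sorted for CD45+, lineage-negative, CD90+, CD127+ cells, a gate for innate lymphoid cells, and about 15000 cells per library entered 10x Genomics 3' v3 droplets at about 20000 reads per cell. The groups were PBS, whose label names no day and in another field reads as untreated, and cisplatin at day 1, day 3 and day 7 after the injection. Each group is 1 library, so no test between groups was possible, the number of mice behind each library is not given, and all intervals below cover counting error only. All 3 comparisons use the same PBS library, and treatment cannot be told apart from day, tumour age, sort or library preparation.

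The libraries held 10063 (PBS), 10745 (day 1), 6264 (day 3) and 2981 (day 7) barcodes, of which 7425, 6841, 4715 and 2705 were kept, with median depths of 5039 to 8769 UMIs. The sorted cells did not match their innate lymphoid label by markers. The macrophage gate took 6830, 5215, 3416 and 2220 of the kept cells, the T gate 155, 446, 555 and 102, and the NK gate 51, 66, 80 and 69. The mast gate took 25, 54, 12 and 0 cells and the stromal gate 44, 43, 3 and 68, while 320, 1017, 649 and 246 cells entered no gate. Pairs of libraries shared 4 to 32 barcode sequences. Macrophage RNA was present in the other gates: Lyz2 and Apoe, macrophage transcripts used in no gate, stood in T cells at 20.9%, 28.8%, 24.1% and 22.3% of their macrophage level in the 4 libraries, and in NK cells at 12.6%, 28.6%, 12.7% and 11.6%.

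A set of deep cells with transcripts of Cdkn2a, which encodes the Mdm2 inhibitor p19Arf and the kinase inhibitor p16, also touches the results. It was noticed after the values were seen. In the 4 libraries, 61, 60, 4 and 109 kept cells had at least 2 Cdkn2a UMIs, and their level of Ptprc, which encodes the sort marker CD45, was 47.1, 37.2, 17.7 and 16.9 CPM ( the UMIs of a gene scaled to 1000000 UMIs of the same cells), against 317, 441, 490 and 213 CPM in the other kept cells. The macrophage gate held 4, 3, 0 and 17 of them and the NK gate 4, 1, 0 and 5.

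The p53 binding site is a pair of copies of a 10-base half-site consensus that reads the same on both strands. It was searched in windows of 300 bases, from 250 bases before to 50 bases after each annotated start, as given by RefSeq for GRCm38.p6, the build that corresponds to mm10. A window was found for 24 members, and 11 of these (45.8%) held at least 1 exact half-site, against 9.55% of 27025 genes. The excerpts show some of these members, 5' to 3' on the strand of the gene, with the exact half-site in capitals and 15 bases to each side. No link between a window and a level was tested. Cdkn1a, at chr17:29090891-29090952 (plus strand), held the half-site at 2 places 12 bases apart, 73 and 51 bases before the start, and it was 1 of 20 genes (0.0740% of 27025) with a pair of exact half-sites at most 13 bases apart. Mdm2 lies at chr10:117710920-117710959 (minus strand), Bax at chr7:45467075-45467114 (minus strand), Ccng1 at chr11:40755447-40755486 (minus strand), Gadd45a at chr6:67037423-67037462 (minus strand) and Trp53 at chr11:69580269-69580308 (plus strand).
Cdkn1a: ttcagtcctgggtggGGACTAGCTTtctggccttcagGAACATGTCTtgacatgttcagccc
Mdm2: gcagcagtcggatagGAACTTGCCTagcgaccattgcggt
Bax: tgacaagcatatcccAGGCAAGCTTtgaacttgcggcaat
Ccng1: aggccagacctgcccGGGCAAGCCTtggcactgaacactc
Gadd45a: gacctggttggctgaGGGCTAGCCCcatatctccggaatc
Trp53: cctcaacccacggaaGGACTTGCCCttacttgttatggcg
The windows of Aen, Ddit4l, Ei24, Polk and Sesn1 also held the half-site, and those of Phlda3, Plk2, Btg2, Gdf15, Sesn2 and 8 other members did not. In macrophages, 7 of 11 members with it and 10 of 13 without it were at least 1.5-fold higher than in PBS on day 1. The counts were 5 of 10 and 9 of 12 on day 3, and 1 of 10 and 3 of 12 on day 7. Of all features in macrophages, 14.7%, 17.3% and 14.8% were higher on these days. The median log2 ratios of the members with and without the half-site were 0.64 and 0.71, 0.56 and 1.06, and -0.01 and 0.20. The difference was not tested. A match is a description of these letters only, and sites outside the window were not searched.

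In macrophages, which made up most of the kept cells, most of the p53 target genes counted were higher on days 1 and 3 after cisplatin. On day 7 their median lay near PBS, with single members away from it on both sides, such as Pmaip1 (log2 ratio 1.88) and Gadd45b (-1.48). Summed over the 30 members, the macrophage level was 1395 CPM in PBS, 2543 on day 1, 3509 on day 3 and 1708 on day 7. A member was counted as higher or lower where its CPM ratio to PBS was at least 1.5-fold and the 2 libraries together held at least 20 of its UMIs. On day 1, 21 of 29 members so counted were higher (72.4%), against 14.7% of all features, and 0 were lower, against 5.79%. On day 3, 18 of 27 were higher (66.7%), against 17.3% of all features, and 1 was lower, against 17.8%. On day 7, 5 of 27 were higher (18.5%), against 14.8%, and 4 were lower (14.8%), against 18.8%, so both counts were near the background. The median log2 ratio of the members was 0.73, 0.79 and 0.09 on the 3 days, beside 0.09, -0.06 and -0.10 over all features. The library in which a member was highest was day 1 for 17 members, day 3 for 12, PBS for 1 (Trp53) and day 7 for 0. Such a count was not taken over all features.

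**Figure D1:**
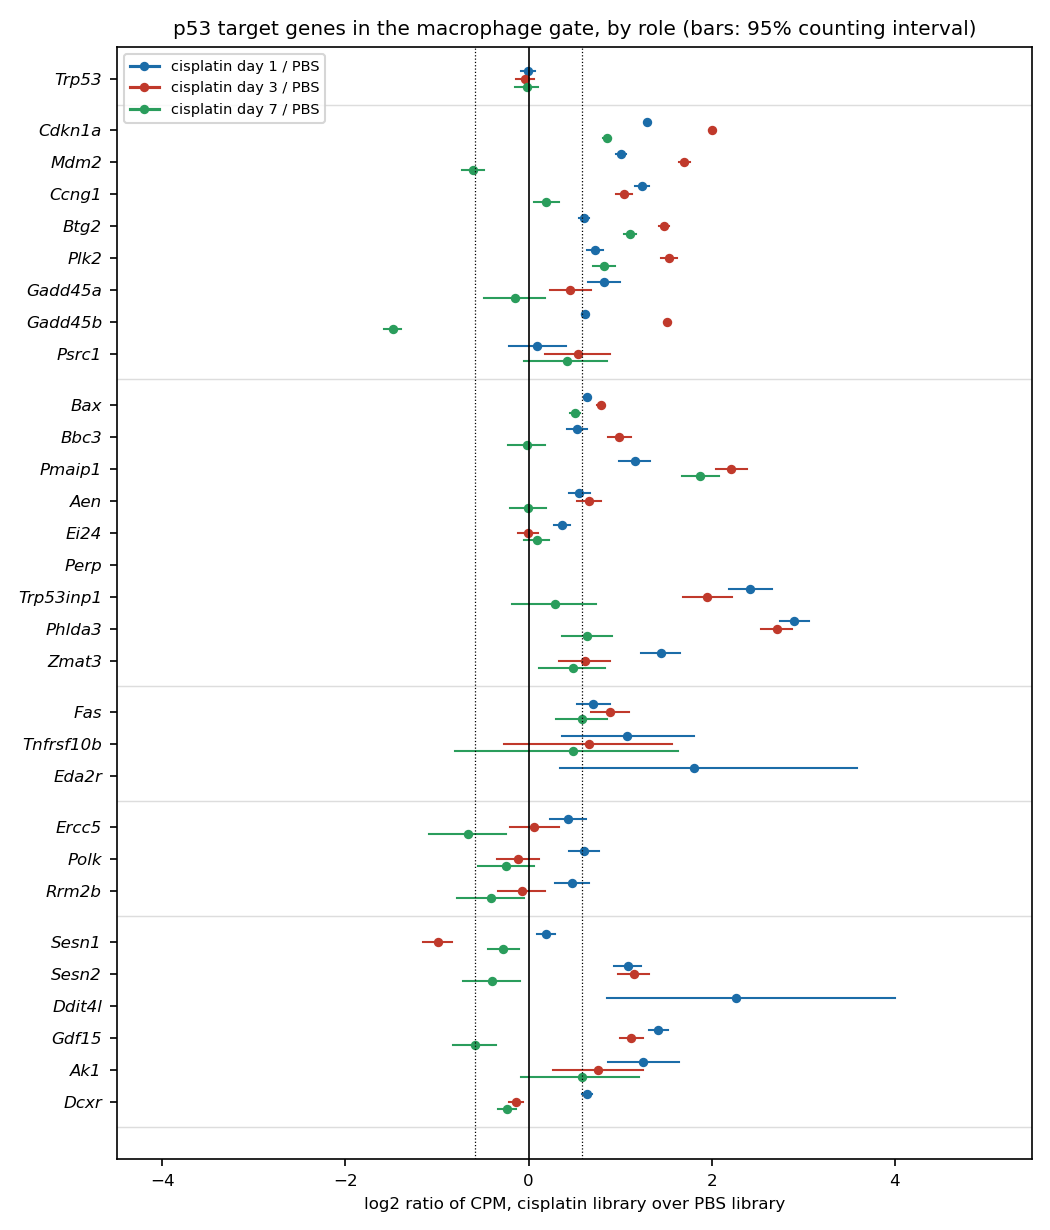
The plot gives, for each member counted, the log2 ratio of its CPM in each cisplatin library over PBS in the macrophage gate (points) with the 95% counting interval (bars), ordered by role. Dotted lines mark 1.5-fold, Trp53 lies on 0, and most blue (day 1) and red (day 3) points lie to the right of the line at 0 while the green (day 7) points are spread around it. Perp had too few UMIs to be drawn.

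Trp53 (ENSMUSG00000059552, chromosome 11, 69580359 to 69591873 in the GENCODE annotation of mm10) stood at nearly one level in macrophages. It was 54.1 CPM in PBS, 53.8 on day 1, 52.7 on day 3 and 53.4 on day 7, and the intervals of all 3 log2 ratios, -0.01 (-0.09 to 0.07), -0.04 (-0.14 to 0.06) and -0.02 (-0.15 to 0.10), include 0. In macrophages the 4 libraries cannot be ordered by their Trp53 transcript. Over all kept cells Trp53 was at 55.4 CPM in PBS and 67.2 on day 7 (log2 ratio 0.28, 0.18 to 0.38), within 1.5-fold. In NK cells it was counted as higher on day 7 (0.81, 0.09 to 1.58), with 36 of its 56 day 7 UMIs in Cdkn2a-bearing cells. In both, the intervals of days 1 and 3 include 0.

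Among the genes of arrest and feedback, Cdkn1a (ENSMUSG00000023067, chromosome 17, 29090976 to 29100727), whose product p21 inhibits cyclin-dependent kinases, stood at 292 CPM in PBS, 718 on day 1, 1168 on day 3 and 529 on day 7. All 3 cisplatin libraries were above PBS, and the log2 ratios were 1.298 (1.27 to 1.33), 2.00 (1.97 to 2.03) and 0.86 (0.81 to 0.90). Mdm2, the ligase that degrades p53, was measured at 83.2, 168.0, 270.7 and 54.6 CPM in the same order. It was thus 2.02-fold higher on day 1 and 3.25-fold higher on day 3, and on day 7 it was below PBS, with a log2 ratio of -0.61 (-0.73 to -0.49). Ccng1, the gene of cyclin G1, which acts on Mdm2 through a phosphatase, gave 40.1, 94.6, 82.7 and 45.9 CPM. The first 2 days after cisplatin stood apart and day 7 lay close to PBS (log2 ratio 0.20, 0.06 to 0.33).

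Btg2, an antiproliferative gene, and Plk2, a kinase of the polo family, shared another course, with day 7 still above PBS. Btg2 had levels of 105.5, 160.6, 294.1 and 227.6 CPM, and Plk2 of 38.3, 63.3, 110.9 and 68.0 CPM. Both were highest on day 3, and on day 7 their log2 ratios were 1.11 (1.04 to 1.18) and 0.83 (0.71 to 0.95). Gadd45a and Gadd45b encode small proteins that bind cell-cycle and stress-kinase partners. Gadd45a was higher on day 1 only, with 8.49, 15.1, 11.6 and 7.67 CPM. Gadd45b gave 233 CPM in PBS, 357 on day 1, 668 on day 3 and 83.6 on day 7. It was 2.86-fold higher on day 3 and below PBS on day 7 by a log2 ratio of -1.48 (-1.58 to -1.39). Psrc1, a spindle protein gene, stayed within 1.5-fold of PBS on each day, at 3.42 to 4.97 CPM.

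**Figure D2:**
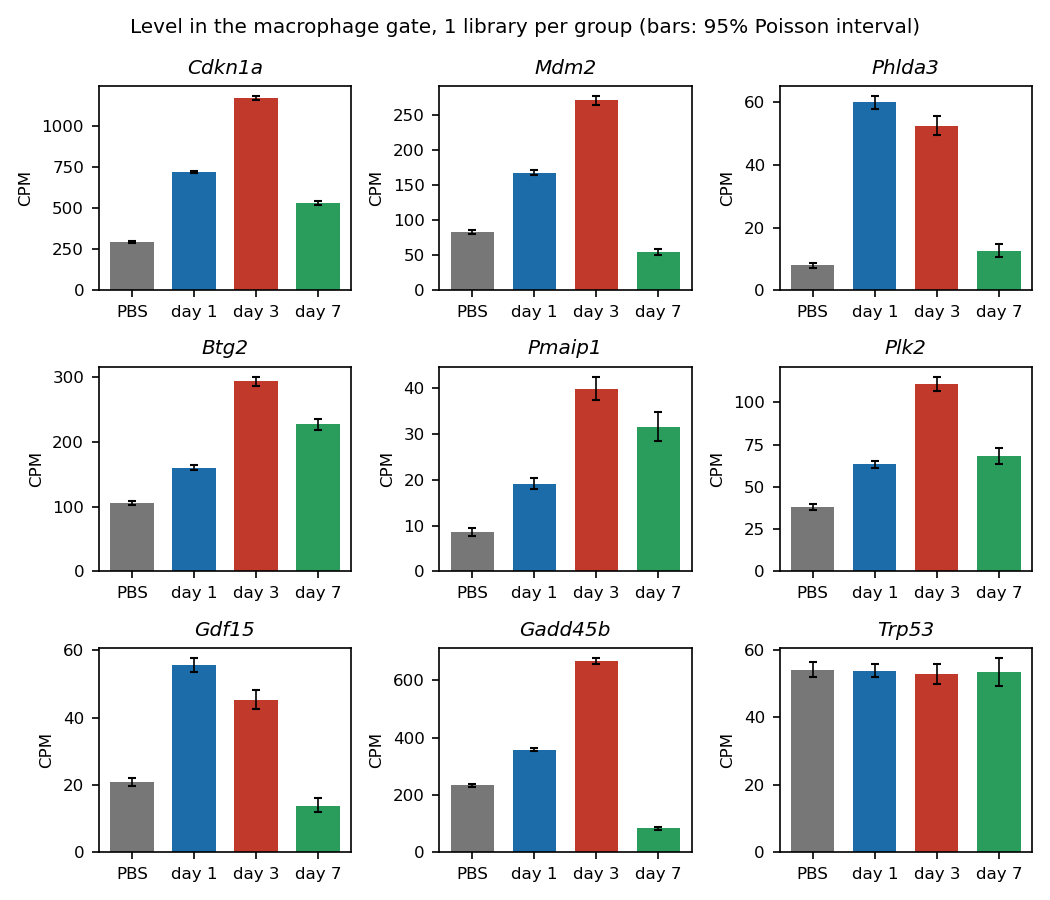
Bars give the CPM of 9 members in the macrophage gate of each library, with 95% Poisson intervals of the count. Cdkn1a, Btg2, Pmaip1 and Plk2 are above PBS in all 3 cisplatin libraries, Mdm2, Gdf15 and Gadd45b drop below PBS on day 7, and Trp53 stands at the same height in all 4.

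Among the genes of cell death, the largest ratios in macrophages belonged to Phlda3 (ENSMUSG00000041801, chromosome 1, 135766119 to 135769136), which encodes an inhibitor of the kinase Akt at the membrane. Phlda3 gave 8.003 CPM in PBS, 59.8 on day 1, 52.4 on day 3 and 12.5 on day 7. It was 7.47-fold higher on day 1 (log2 ratio 2.90, 2.75 to 3.06) and 6.55-fold higher on day 3 (2.71, 2.54 to 2.88), and on day 7 it was 1.56-fold higher. Without the Cdkn2a-bearing cells the day 7 log2 ratio went from 0.64 to 0.51, below 1.5-fold, so Phlda3 was no longer counted on that day. Trp53inp1, a p53-inducible nuclear protein tied to cell death and autophagy, followed with 3.68, 19.7, 14.2 and 4.49 CPM. The first 2 cisplatin libraries were 5.37-fold and 3.87-fold above PBS, and the day 7 interval includes 0 (log2 ratio 0.29, -0.18 to 0.73). Zmat3, a zinc finger RNA-binding protein gene, stood at 5.19, 14.1, 7.95 and 7.26 CPM, so day 1 alone was more than 2-fold above PBS.

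Pmaip1 (Noxa) and Bbc3 (Puma) encode BH3-only proteins that free Bax, a pore-forming protein of the mitochondrial membrane. Pmaip1 had levels of 8.59, 19.2, 39.9 and 31.6 CPM, and its log2 ratio on day 7, 1.88 (1.67 to 2.08), was larger than on day 1 (1.16, 0.99 to 1.33). Bbc3 was at 21.9, 31.6, 43.5 and 21.5 CPM, which is 1.99-fold higher on day 3 and level with PBS on day 7. Bax was more even, at 228, 356, 394 and 324 CPM, with all 3 cisplatin libraries above PBS by log2 ratios of 0.64, 0.79 and 0.51. Aen, an exonuclease that digests DNA in apoptosis, passed 1.5-fold on day 3 only (22.0, 32.3, 34.8 and 21.9 CPM). Ei24, an endoplasmic reticulum protein gene, stayed within 1.5-fold at 39.9 to 51.7 CPM, and Perp, a desmosome gene, had 4, 7, 1 and 0 UMIs in all macrophages and was not counted.

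Of the death and tumour necrosis factor receptors, Fas, which starts apoptosis on binding Fas ligand, was at 8.23, 13.5, 15.2 and 12.3 CPM. Its interval excluded the PBS level on each day, with log2 ratios of 0.71, 0.89 and 0.58. Tnfrsf10b, the mouse TRAIL receptor gene, had 25, 57, 20 and 9 macrophage UMIs, and Eda2r, a receptor of ectodysplasin, had 5, 19, 7 and 3. At these counts day 1 was higher for both (log2 ratios 1.07, 0.37 to 1.81, and 1.81, 0.34 to 3.59), and the intervals of the later days include the PBS level, also for Tnfrsf10b on day 3, which was counted as higher at 1.58-fold.

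The repair and nucleotide genes gave 1 higher call on day 1 and 1 lower call on day 7. Polk, a translesion DNA polymerase, was at 10.6, 16.1, 9.81 and 8.98 CPM and passed 1.5-fold on day 1 only, with a ratio of 1.52. Rrm2b, the p53-inducible subunit of ribonucleotide reductase, lay within 1.5-fold on each day (8.32, 11.6, 7.91 and 6.28 CPM). Ercc5, the excision repair endonuclease XPG, did so on days 1 and 3 and was lower on day 7, at 4.57 CPM against 7.21 CPM in PBS (log2 ratio -0.66, -1.09 to -0.25).

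The stress-sensing and metabolic members went in different directions. Sesn1 and Sesn2 encode sestrins, leucine-responsive inhibitors of mTORC1. Sesn2 was higher on days 1 and 3 (11.3, 23.96, 25.1 and 8.57 CPM), whereas Sesn1 was the only member counted as lower on day 3 (34.2, 38.9, 17.2 and 28.2 CPM, log2 ratio -0.99, -1.15 to -0.83). Gdf15, a secreted stress cytokine of the TGF-beta family, stood at 20.8, 55.7, 45.3 and 13.9 CPM. It was 2.67-fold and 2.18-fold above PBS on days 1 and 3 and below PBS on day 7 (log2 ratio -0.59, -0.83 to -0.35). Dcxr, a carbonyl reductase, was higher on day 1 only (96.0, 149.5, 87.2 and 81.7 CPM). Ak1, a cytosolic adenylate kinase, stood at 1.64, 3.90, 2.77 and 2.45 CPM from 78, 201, 67 and 30 UMIs. It was 2.38-fold higher on day 1 and 1.69-fold higher on day 3 (log2 ratio 0.76, 0.27 to 1.25). Ddit4l, a relative of the mTORC1 inhibitor Ddit4, had 5, 26, 0 and 1 UMIs, so its ratio rests on day 1 alone.

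Seen over the 3 days, 5 of the 27 members counted on each day were higher on all of them in macrophages (Cdkn1a, Phlda3, Pmaip1, Plk2 and Btg2), and 11 were higher on days 1 and 3 and not on day 7. The share of all features with these patterns was not taken. The 3 ratios use the same PBS library, so calls on different days are not independent. Trp53, Ei24, Rrm2b and Psrc1 were within 1.5-fold of PBS throughout. On day 1 several ratios lay close to the threshold: Btg2 and Polk at 1.52-fold and Gadd45b at 1.53-fold were counted, and Aen at 1.47-fold and Bbc3 at 1.44-fold were not. With a 2-fold threshold, 13, 11 and 2 members were higher in macrophages on days 1, 3 and 7, and the share of all features at that threshold was not taken.

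Both the share of macrophages with a Cdkn1a UMI and the mean UMIs in those cells were higher than in PBS in all 3 cisplatin libraries. After thinning each cell to 2000 UMIs, 39.2% of macrophages in PBS had a Cdkn1a UMI (95% Clopper-Pearson interval 38.0% to 40.4%), against 64.4% on day 1, 79.4% on day 3 and 53.7% on day 7. The unthinned shares were 68.0%, 90.5%, 93.2% and 74.4%. Among thinned cells with a Cdkn1a UMI, the mean number of its UMIs was 1.62, 2.38, 3.11 and 2.12. For Mdm2 the thinned share was 14.7%, 24.7%, 36.4% and 9.85%, and for Phlda3, the member with the largest ratio, it was 1.26%, 8.80%, 7.27% and 2.26%. The unthinned Phlda3 shares were 4.51%, 26.1%, 18.5% and 5.09%, and at these levels the depth of a cell limits whether a UMI is seen, so the shares do not count the cells that express it. The mean number of members detected per thinned macrophage was 2.25 in PBS, 3.38 on day 1, 3.94 on day 3 and 2.47 on day 7, and 5.90%, 23.5%, 33.8% and 8.62% of these cells held 5 or more of the 30.

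**Figure D3:**
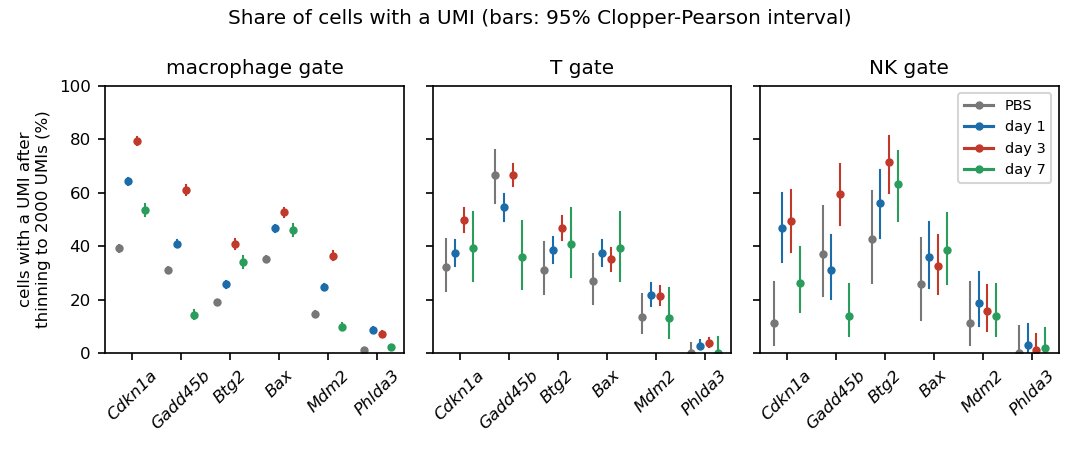
The share of cells with a UMI of 6 members after thinning to 2000 UMIs is drawn for the macrophage, T and NK gates (points, 1 per library) with 95% Clopper-Pearson intervals (bars). In macrophages the Cdkn1a share goes from 39.2% in PBS to 79.4% on day 3, and the NK intervals are the widest because each rests on 35 to 77 cells.

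The make-up of the macrophages differed between libraries, so the members were also compared within macrophage states set by other genes. Cells with at least 2 UMIs of Ly6c2 and Plac8, which mark recent monocytes, numbered 51, 152, 1095 and 61 in the 4 libraries. Cells with at least 3 UMIs of Cd163, Folr2 and Stab1, which mark resident macrophages, numbered 4028, 3324, 894 and 745. Within the resident-like cells the median log2 ratio of the members was 0.70, 0.90 and 0.00 on days 1, 3 and 7, and within the monocyte-like cells it was 0.38, 0.64 and 0.37, beside medians of 0.08, -0.04 and -0.15, and 0.10, 0.00 and 0.03, over all features. The monocyte-like day 7 median rested on only 9 members, which lay on both sides of PBS, and on 51 PBS and 61 day 7 cells. Cycling cells, with at least 2 UMIs of Mki67 and Top2a, gave 0.95, 0.93 and 0.16, and cells with 0 UMIs of both gave 0.64, 0.82 and 0.10.

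Phlda3 was higher in each state on days 1 and 3. Its level in cycling macrophages was 7.60 CPM in PBS and 120.3 on day 1 (log2 ratio 3.98), against 7.65 and 49.2 CPM in cells without Mki67 and Top2a (2.69). Mdm2 gave a day 1 log2 ratio of 1.61 in cycling cells and 0.90 in cells without those transcripts, and 1.73 in both on day 3. Cdkn1a in PBS ranged from 263 CPM in resident-like to 664 CPM in monocyte-like macrophages, and on day 3 from 873 in cycling to 1413 CPM in Arg1-like cells (at least 3 Arg1 UMIs). The direction of Gadd45b on days 1 and 3 differed between states, which was not tested. In monocyte-like cells it was highest in PBS (918 CPM) and lower on day 1 (604), day 3 (802) and day 7 (171), while in the other states day 3 was above PBS.

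**Figure D4:**
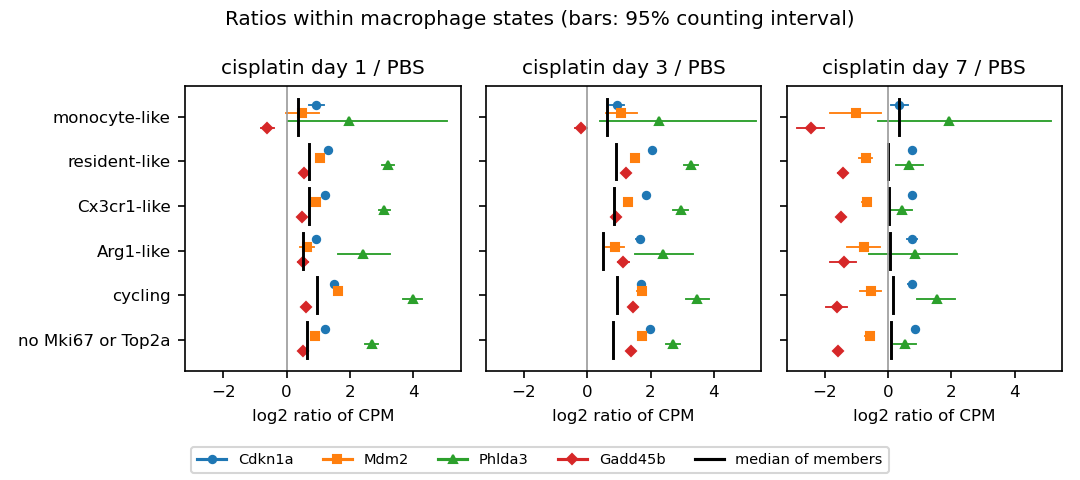
Log2 ratios of CPM over PBS for Cdkn1a, Mdm2, Phlda3 and Gadd45b (points with 95% counting intervals) and the median of the members (black line) within 6 macrophage states, 1 panel per day. Cdkn1a lies right of 0 in each state on each day, and Gadd45b lies left of 0 in each state on day 7.

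In T cells the summed level of the members was 1996 CPM in PBS, 2574 on day 1, 2793 on day 3 and 1838 on day 7. Gadd45b alone held 791 CPM of the PBS sum and 231 CPM of the day 7 sum. The lower sum on day 7 than in PBS rests on this gene. On day 1, 10 of 25 members counted were higher (40.0%), against 21.9% of all features, and 1 was lower, against 9.62%. On day 3, 9 of 25 were higher (36.0%), against 20.4%, and 4 were lower (16%), against 12.2%. On day 7, 6 of 13 were higher (46.2%), against 21%, and 1 was lower, against 18.7%. Where the interval also had to exclude the PBS level, 7, 5 and 3 members were higher and 0, 1 and 1 lower on the 3 days. With macrophage RNA subtracted at the Lyz2 and Apoe shares, 8, 7 and 5 were higher and 5, 6 and 1 lower, and the median log2 ratio of the members went from 0.50 to 0.20, from 0.34 to -0.12 and from 0.54 to 0.41. No share of all features was taken with the interval rule or after the subtraction, so the shares above do not apply to those counts. The 102 day 7 cells and 155 PBS cells limit the day 7 values.

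Cdkn1a in T cells was at 212 CPM in PBS, 511 on day 1, 547 on day 3 and 319 on day 7, with log2 ratios of 1.27 (0.96 to 1.59), 1.37 (1.06 to 1.69) and 0.59 (0.16 to 1.02). At the Lyz2 and Apoe shares given above, macrophage RNA would carry 60.9, 207, 281 and 118 CPM of Cdkn1a into the T gate, which is below the measured level in all 4 libraries. With that RNA subtracted, the log2 ratios were 1.01, 0.82 and 0.41, so the day 7 ratio no longer reached 1.5-fold. Phlda3 was at 2.31 CPM in PBS (1 UMI), 21.5 on day 1, 23.6 on day 3 and had 0 UMIs on day 7, beside 17.2 and 12.6 CPM of macrophage RNA on days 1 and 3. Its day 1 level in T cells is thus close to what that share alone gives. With that RNA subtracted, the log2 ratios of Phlda3 were 2.74 on day 1 and 4.11 on day 3, against a PBS level from 1 UMI. Without that subtraction, Plk2 and Pmaip1 were the other members counted as higher on all 3 days, with Plk2 at 16.1, 32.2, 50.9 and 43.6 CPM from 7 to 136 UMIs. Gdf15 had 3, 75, 28 and 2 UMIs in T cells, and 28 of the 75 on day 1 came from 1 cell. When macrophage RNA at those shares was subtracted, the log2 ratio of Gdf15 on day 3 turned from 0.60 to -1.19 and that of Dcxr on day 1 from 0.76 to -0.0562. Mdm2 stayed within 1.5-fold of PBS in T cells on each day (103.7, 144.2, 131.6 and 77.2 CPM). Gadd45b was as high in PBS T cells (791 CPM) as on day 3 (844), below it within 1.5-fold on day 1 (638) and lowest on day 7 (231). Trp53 was 46.1, 67.1, 82.6 and 80.5 CPM, with an interval above 0 on day 3 only (log2 ratio 0.84, 0.18 to 1.58).

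In T cells the share with a Cdkn1a UMI after thinning was 32.3%, 37.5%, 49.9% and 39.3%, and the intervals of PBS (23.1% to 42.6%) and day 1 (32.7% to 42.5%) overlap. The mean UMIs in cells that had one were 1.16, 1.87, 1.86 and 1.83.

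In NK cells the summed level was 1450 CPM in PBS, 2418 on day 1, 2640 on day 3 and 2022 on day 7. Of the 12, 12 and 13 members counted, 7 were higher on day 1 (58.3%, against 32.2% of all features), 6 on day 3 (50%, against 26.9%) and 7 on day 7 (53.8%, against 29.8%). With macrophage RNA subtracted, whose share was 28.6% on day 1 and 12.6% in PBS, 3, 5 and 8 were higher and 3, 1 and 1 lower. The share of all features was not taken after that subtraction. Without the subtraction 1 was lower on each day (Phlda3, Aen and Gadd45b), against 18.9%, 18.6% and 14.1% of all features. Cdkn1a was at 170 CPM in PBS, 536 on day 1, 483 on day 3 and 328 on day 7, and Btg2 at 296, 546, 558 and 470 CPM, and both were higher on all 3 days. Gadd45b was at 221, 366, 741 and 82.6 CPM, high on day 3 and low on day 7. Ei24, counted as higher on days 1 and 7, turned from 0.72 to -0.24 and from 0.81 to -0.62 when each cell was given equal weight.

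Some NK values rest on the Cdkn2a-bearing cells. Phlda3 was at 55.3 CPM in PBS, 27.7 on day 1, 8.81 on day 3 and 76.9 on day 7, but 13 of 14 UMIs in PBS, 8 of 14 on day 1 and 27 of 27 on day 7 came from the 4, 1 and 5 such cells. Without those cells Phlda3 was at 6.87 CPM in PBS (1 UMI), 12.7 on day 1, 8.81 on day 3 and 0 on day 7. Cdkn1a without them was 192, 445, 483 and 219 CPM, with days 1 and 3 still the highest and day 7 nearer to PBS. Btg2 without them was 460, 566, 558 and 739 CPM, with day 7 the highest. Ak1 and Plk2 on day 7, at 62.7 and 85.4 CPM, dropped to 4.77 and 23.9 CPM. Aen, counted as lower on day 3, had 10 of its 12 PBS UMIs in such cells, and without them it was at 13.7 CPM in PBS (2 UMIs) and 21.1 CPM on day 3, on the other side of PBS. Leaving these cells out left 47 PBS cells, under the 50 set for a comparison, so no counts are given for that case.

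**Figure D5:**
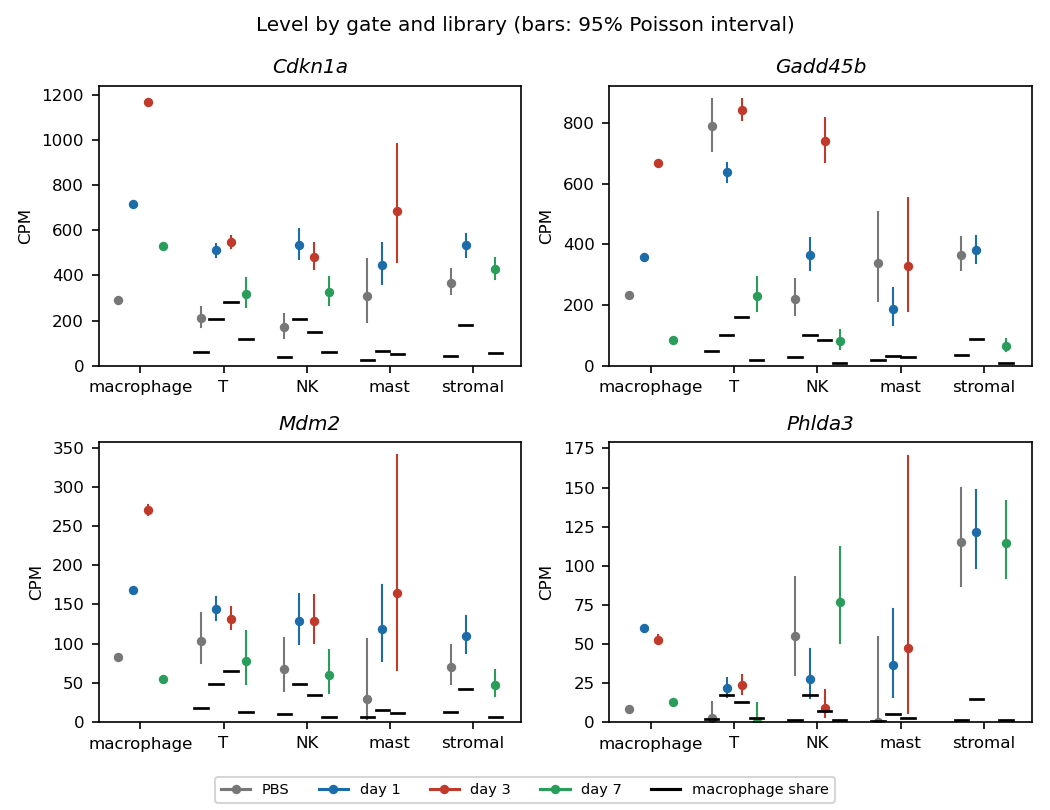
Levels of Cdkn1a, Gadd45b, Mdm2 and Phlda3 in the 5 gates, 1 point per library with the 95% Poisson interval, and black ticks for the level that the Lyz2 and Apoe share of macrophage RNA would give. The 3 stromal cells of day 3 are not drawn and the mast gate had 0 cells on day 7. Phlda3 in the stromal gate stands at 115 to 122 CPM in the 3 libraries drawn.

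The mast gate gave levels only. Cdkn1a was at 309 CPM in PBS, 445 on day 1 and 684 on day 3, from 21, 97 and 29 UMIs, and the PBS and day 3 intervals (191 to 472 and 458 to 983 CPM) overlap. Gdf15 was at 14.7, 115 and 236 CPM from 1, 25 and 10 UMIs. The summed level of the members was 1251, 1673 and 2430 CPM. In the stromal gate Phlda3 was at 115, 122 and 115 CPM in PBS, day 1 and day 7, and Cdkn1a at 368, 532 and 428 CPM. Of the 44, 43 and 68 cells of that gate, 29, 19 and 45 had at least 2 Cdkn2a UMIs, and these held 53 of 56, 50 of 97 and 69 of 87 of its Phlda3 UMIs. Without them Phlda3 was at 26.8, 136 and 72.3 CPM from 3, 47 and 18 UMIs, and Cdkn1a at 89.3, 689 and 325 CPM, so the even Phlda3 levels rest on those cells. Trp53 was at 126, 85.2 and 139 CPM in the stromal gate, against 52.7 to 54.1 CPM in macrophages.

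Over all kept cells, 21 of 30 members were higher on day 1 (70.0%), against 19.9% of all features, and 0 were lower, against 4.55%. On day 3, 17 of 29 were higher (58.6%), against 20.2%, and 1 was lower, against 17.2%. On day 7, 11 of 28 were higher (39.3%), against 22%, and 2 were lower (7.14%), against 14.2%. Without the Cdkn2a-bearing cells, 8 members were higher and 4 lower on day 7 over all kept cells, and 21 and 18 higher on days 1 and 3. The share of all features was not taken for that case. Several day 7 values changed when the Cdkn2a-bearing cells were left out. Ak1 was at 2.15, 5.24, 3.08 and 11.8 CPM over all kept cells, and without those cells at 1.65, 3.96, 2.63 and 3.08 CPM, so that its day 7 log2 ratio went from 2.46 to 0.90. Phlda3 on day 7 went from 1.26 to 0.64 and Psrc1 from 1.13 to 0.28. In bulk sums such as these, fewer cells of a type and less RNA per cell cannot be told apart.

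Other genes of the pathway were taken from lists that hold none of the 30 and were compared in macrophages, where 14.7%, 17.3% and 14.8% of all features were higher and 5.79%, 17.8% and 18.8% lower on days 1, 3 and 7. Of 35 other p53 targets, 10 of the 34 counted were higher and 1 lower on day 1, 9 and 3 of 34 on day 3, and 2 and 5 of 33 on day 7, with median log2 ratios of 0.24, 0.16 and -0.27. The highest on day 1 were the long non-coding RNA Trp53cor1 (0.84 to 2.69 CPM), the receptor kinase gene Epha2 (1.87 to 5.81 CPM) and Cpt1c (0.40 to 1.24 CPM), a carnitine palmitoyltransferase. The lowest was Ckap2, a spindle gene, at 12.96 CPM in PBS and 4.46 on day 1 (log2 ratio -1.54), followed by Fdxr (-0.18) and Tigar (-0.15). On day 3 the highest were Gls2 (2.26, from 17 and 7 UMIs), Trp53cor1 (1.68) and Pml (1.60), and the lowest Ckap2 (-2.06), Sulf2 (-1.23) and Gtse1 (-0.62). On day 7 they were Ddit4 (1.79), Abhd4 (0.63) and Triap1 (0.52), and Fdxr (-1.22), Ddb2 (-0.85) and Ephx1 (-0.81). Among 16 regulators of p53, Mdm4, the partner and relative of Mdm2, was the 1 member higher on day 1 (24.4 to 40.9 CPM, log2 ratio 0.75), and Chek1, a checkpoint kinase gene, the 1 lower (-1.08). On day 3, 2 were higher (Mdm4 at 0.69 and Trp53bp2 at 0.74) and 6 lower, led by Chek1 (-1.19), Cdkn2a (-0.95) and Chek2 (-0.86). On day 7, 5 were lower, led by Rpl5 (-1.33), Prkdc (-1.33) and Atm (-1.22), and 1 was higher, Cdkn2a (2.10), while the macrophage gate held 17 cells with at least 2 Cdkn2a UMIs.

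Other programmes also differed from PBS in macrophages, in different directions, and their part in the result was not tested. All 12 genes of a G2 and M phase list were lower in macrophages on days 1 and 3 (median log2 ratios -2.43 and -2.56), and 9 of 12 on day 7 (-0.94). All 9 genes of an interferon-induced list were higher on day 3 (median 3.25), against 5 on day 1 (0.62) and 8 on day 7 (1.10). Of 10 immediate-early genes, 2, 8 and 5 were higher on the 3 days (medians 0.26, 0.89 and 0.58) and 0 were lower. Of 11 integrated stress response genes counted, 2, 3 and 1 were higher and 5, 3 and 5 lower (medians -0.28, 0.41 and -0.39), counts to be read beside the shares of all features given above. Within macrophages with 0 UMIs of Mki67 and Top2a, Cdkn1a gave log2 ratios of 1.22, 1.98 and 0.85, and Mdm2 of 0.90, 1.73 and -0.58. A count of 0 UMIs does not exclude a cycling cell, and the part of cycling in these ratios was not tested.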

How the data were processed

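Single-cell 3' RNA libraries were analysed from the deposited UMI count matrices, 1 per library, with barcodes and features. Cell Ranger 3.1.0, Seurat 3.1.2 and the mm10 build are listed, with no role given, per the submitters' processing notes. The values deposited by the authors are whole-number counts, not normalised. The member genes, gene lists and gates were chosen with earlier results of these data known.

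Barcodes were kept from 500 detected genes upward, unless mitochondrial UMIs exceeded 10%. Scrublet (through scanpy 1.11.5) marked 0 cells at its automatic threshold in all 4 libraries, so the highest scores were removed at 0.8% per 1000 barcodes (650, 643, 249 and 66 cells), a choice made after seeing the data. Gates needed 10 macrophage, 3 T, 3 NK, 20 mast or 10 stromal marker UMIs, at most 1 T or NK and 5 mast or stromal UMIs of other lists and, outside the macrophage gate, at most 1% macrophage marker UMIs. Counts were summed per gate and library and scaled to CPM. A gene was counted where both libraries held at least 50 cells and 20 of its UMIs together. Ratios carry exact conditional binomial 95% intervals, levels exact Poisson ones. All 30 members are named, and, of the lists of other p53 targets and regulators, the 3 highest and 3 lowest genes where they bear on a count. The lists of interferon, immediate-early, stress response and G2 and M phase genes are given as counts. TMM factors came from edgeR 4.0.16 and size factors from DESeq2 1.42.0. Ratio and call code was tested on simulated data. PCR was collapsed by UMI, and transcripts of overlapping genes cannot be told apart.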

Additional observations from a re-analysis of the deposited data

Results flagged for a closer look

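Mdm2 in macrophages lay on opposite sides of PBS on different days, with log2 ratios of 1.01 on day 1, 1.70 on day 3 and -0.61 on day 7. Gdf15 did so in macrophages, with 1.42, 1.12 and -0.59, and over all kept cells, with 1.36, 1.01 and -0.80. Gadd45b did so in macrophages, with 0.61, 1.52 and -1.48, over all kept cells, with 0.61, 1.49 and -1.46, and in NK cells, with 0.73, 1.75 and -1.42. With 1 library per day, the difference between days was not tested.

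Medians of the members' log2 ratios to the same barcodes of PBS were also taken for barcodes left out for more than 10% mitochondrial UMIs. They were 0.48 on day 1 (2164 barcodes against 1293 in PBS), 0.83 on day 3 (709 barcodes) and 0.48 on day 7 (79 barcodes). The day 7 median is the value of Gdf15, which had 45 UMIs in PBS and 0 on day 7. Its 0 was replaced by a floor of 3 counts, so the day 7 median gives no direction. No median over all features stands beside these values. The comparisons of the report leave those barcodes out, and the alternative with no mitochondrial limit takes them in.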

How the results depend on the processing

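No paired analysis was possible because each group is 1 library. Values in the T and NK gates rest on 51 to 555 cells per library. The NK comparison was not run with at most 5% mitochondrial UMIs (49 PBS cells), with a macrophage share of at most 0.5% (45) or without Cdkn2a-bearing cells (47), since fewer than 50 PBS cells were left. Of the 441 summary values under alternatives, 379 stayed within the range set for no change and 62 moved. The cause was not tested. Shares of all features were not taken under the alternatives, so the counts below show only how the member counts depend on the setting.

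With a fold of 2 the members higher were 13 on day 1 over all kept cells, 13, 11 and 2 in macrophages, 4, 4 and 2 in T cells and 2, 2 and 3 in NK cells on days 1, 3 and 7. The members lower were then 0 on day 3 and 1 on day 7 over all kept cells, 0 and 1 in macrophages on the same days, 0 and 1 in T cells on days 1 and 3, and 0 in NK cells on day 1. With no UMI minimum the members lower were 2 on day 3 over all kept cells and in macrophages, 4 and 5 in T cells on days 1 and 7, and 4, 6 and 4 in NK cells, with 16, 11 and 13 higher in NK cells. With at least 50 UMIs, 1 was lower in T cells on day 3 and 3 higher on day 7, and in NK cells 0 were lower on days 1 and 3, with 4 and 3 higher on days 1 and 7. Where the interval had to exclude the PBS level, 0 and 1 were lower in T cells on days 1 and 3, 5 and 3 higher on days 3 and 7, and 0 lower in NK cells on days 1 and 3. As a mean of cells, 2 were lower over all kept cells on day 3, in macrophages on day 7, in T cells on day 7 and in NK cells on day 7, and 4 higher in NK cells on day 7. TMM scaling and DESeq2 size factors each gave 2 lower in NK cells on days 1 and 7, and the size factors 2 lower in macrophages on day 7. A macrophage share of at most 2% gave 0, 1 and 2 lower in T cells, 2 lower in NK cells on day 3 and 11 higher on day 1. With doublets kept, 0 and 2 were lower in T cells on days 1 and 3. With at most 5% mitochondrial UMIs 2 were lower in T cells on day 1, and with no such limit 2 in NK cells on day 1. With macrophage RNA subtracted, 5 were lower in T cells and 3 in NK cells on day 1, with 3 higher in NK cells. Without Cdkn2a-bearing cells, an alternative chosen after seeing the data, 4 were lower on day 7 over all kept cells.

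The sign turned for several single-gene values, and 4 of these were classed as reversed. It also turned for the median of the members in T cells on day 3, which went from 0.34 to -0.12 with macrophage RNA subtracted. That subtraction also turned Mdm2 (0.34 to -0.38) and Gadd45b (0.09 to -0.12) in T cells on day 3. On day 1 it turned Ei24 (0.08 to -0.14) and Rrm2b (0.08 to -0.07) in T cells, and Bax in NK cells (0.31 to -0.31). With macrophage RNA subtracted, the log2 ratios in T cells of Dcxr on day 1 and Gdf15 on day 3 went from 0.76 to -0.0562 and from 0.60 to -1.19. As a mean of cells, Ei24 in NK cells went from 0.72 to -0.24 on day 1 and from 0.81 to -0.62 on day 7.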
